A study of Mus musculus with 6 samples.

Results

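SCA1, the product of *Ly6a*, and a panel of other cell surface proteins are used to sort stem-like and tumor-initiating cells, and 10 of their genes are described here in mouse ovarian surface epithelial (OSE) cells before and after spontaneous transformation. The genes are *Ly6a*, *Ly6c1*, *Ly6e*, *Prom1*, *Cd44*, *Cd24a*, *Kit*, *Epcam*, *Thy1* and *Eng*. They were chosen by name, with earlier results of these data known. Each was read by the probe set of that symbol with the highest mean over the arrays. All 10 were on the array, each with 1 probe set, among 20405 genes in all. Whole-transcript arrays of the Affymetrix Mouse Gene 1.0 ST type were run on total RNA, 3 for M0505 cells at early passage and 3 for STOSE cells. M0505 is a line of OSE cells from FVB/N mice, and STOSE is the line that arose from M0505 cells on long-term passage, without an engineered change. Both were grown in the same murine OSE medium, with serum and EGF, and neither was treated or sorted for SCA1 before RNA extraction. Each line is a single line, so its arrays, labeled as biological replicates, carry the spread between samples of that line and not between independently derived lines.

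SCA1, LY6C and LY6E belong to the Ly6/uPAR family of small proteins with a disulfide-bonded fold, most of which are held in the outer membrane leaflet by a glycosylphosphatidylinositol (GPI) lipid anchor. CD24 and THY1 are held by the same kind of anchor, whereas CD44, the receptor for the matrix polysaccharide hyaluronan, the receptor tyrosine kinase KIT, the adhesion protein EPCAM, the TGF-β co-receptor endoglin (gene *Eng*) and the pentaspan protein prominin-1 (CD133, gene *Prom1*) cross the membrane. SCA1 marks hematopoietic stem cells and a stem-like fraction of OSE cells in mice, and CD133, CD44, CD24, KIT and EPCAM have been used to enrich tumor-initiating cells from ovarian cancers. *Ly6a* and *Ly6e* are both known to respond to interferon.

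Values are robust multi-array average (RMA) log2 values as deposited, so that a difference of 1 is a 2-fold change. As a measure of background, olfactory receptor probe sets, whose genes should not be expressed in OSE cells, had a 95th percentile of 4.74, and 72.3% of all genes had a mean above it in the brighter line, as had 8 of the 10 markers. STOSE and M0505 arrays were compared with limma, and a gene is said to have risen or fallen where the Benjamini-Hochberg adjusted p over all 20405 genes was under 0.05 and the change was at least 2-fold. This rule called 4.9% of all genes as higher in STOSE cells, 7.59% as lower and 12.5% in total. Among genes above background in the brighter line it called 17.1% in total. At the adjusted p alone, 56.5% of all genes passed, and in 64.6% the 3 arrays of one line did not overlap those of the other, so neither measure by itself sets a marker apart. Pearson's r across genes, which are not independent replicates, was 0.997 to 0.999 between arrays of a line and 0.943 to 0.950 between lines. The median log2 fold change of all genes was 0.08, and centring each array on its median moved it to 0.28. Of 15 markers of mesothelial and ovarian surface epithelial cells, 14 lay above the background level in M0505 cells and 14 in STOSE cells, and *Lhx9* lay under it in both.

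Of the 10 marker genes, *Cd44* and *Thy1* rose in STOSE cells, *Ly6e* fell and 7 did not pass the rule. That is 20% higher and 10% lower, against 4.9% and 7.59% of all genes. Shares of only 10 genes are coarse, and no test of the markers as a set was run. *Ly6a*, the SCA1 gene, was 1.89-fold lower in STOSE cells, just under the 2-fold limit, and was the marker whose STOSE arrays differed most from each other. *Epcam* was at least 1.53-fold lower, as it lay under the background level in STOSE cells. *Eng* differed 1.18-fold, *Kit* and *Ly6c1* lay near the background level, and *Prom1* and *Cd24a* lay under it on all 6 arrays. Where all arrays of one line lay under the background level, a fold is given as a lower bound, with 4.74 in place of the lower values, and log2 differences are those of the fit. The median log2 fold change of the 10 markers was −0.09.

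**Figure D1:**
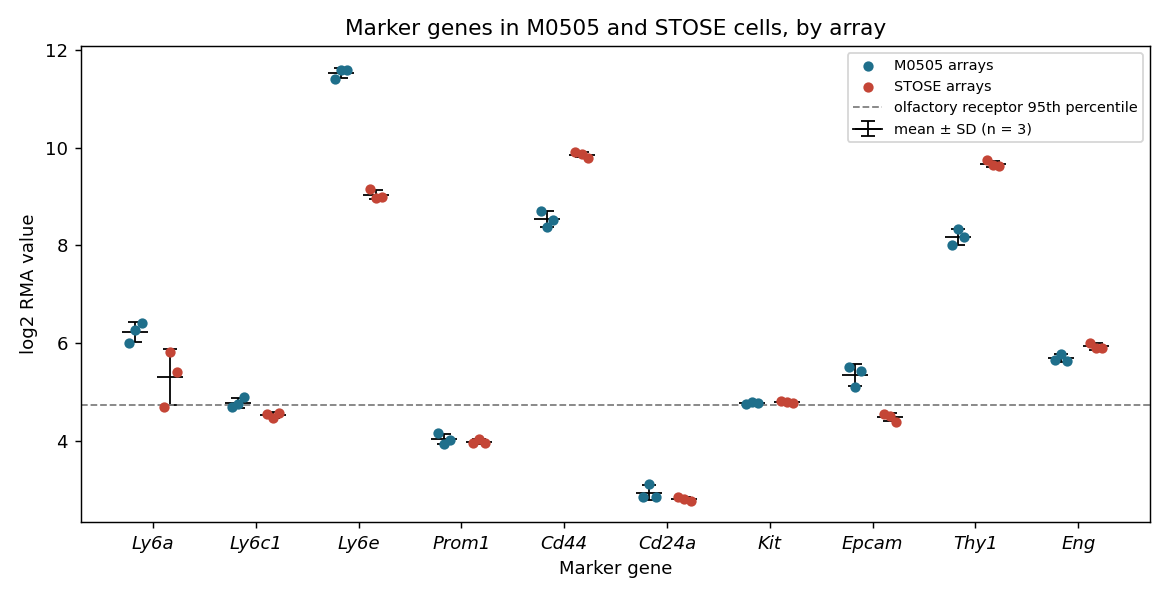
Log2 RMA values (vertical axis) of the 10 marker genes (horizontal axis) on each M0505 array (blue) and STOSE array (red), with the mean and SD of each line in black. The dashed line at 4.74 is the 95th percentile of olfactory receptor probe sets. The STOSE points of *Ly6a* spread from 4.70 to 5.82, *Ly6e* drops from about 11.53 to 9.04, and *Prom1* and *Cd24a* stay under the line.

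*Ly6a* encodes SCA1 itself. Its log2 values were 6.005, 6.26 and 6.42 on M0505 replicates 1, 2 and 3, and 4.70, 5.82 and 5.41 on STOSE replicates 1, 2 and 3. The M0505 arrays did not overlap the STOSE arrays, although the gap between M0505 replicate 1 and STOSE replicate 2 was small, and STOSE replicate 1 lay under the background level. Over the 3 arrays of each line the mean was 6.23 ± 0.21 (SD) for M0505 and 5.31 ± 0.57 (SD) for STOSE, a log2 fold change of −0.92 (standard error, SE, 0.25, 95% interval −1.50 to −0.34, limma adjusted p = 0.0136). The interval runs across the 2-fold limit.

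The 2-fold rule was met for *Ly6a* when some arrays were left out. The log2 fold change was −1.18 without STOSE replicate 2 (limma adjusted p = 0.00239) and −1.03 without M0505 replicate 1 (0.0201), and both of these passed. Without M0505 replicate 3 the adjusted p was 0.0522, past the 0.05 limit. The size of the difference was smallest, at −0.62, without STOSE replicate 1. Because the arrays read RNA pooled from all cells of a culture, fewer cells with SCA1 and less *Ly6a* RNA per cell cannot be told apart on them. By flow cytometry, the study found a smaller share of SCA1+ cells in STOSE than in M0505 cultures. The part of that share in the *Ly6a* difference was not tested.

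The spread of *Ly6a* among the STOSE arrays was itself large. The highest and the lowest STOSE array differed 2.18-fold, against 1.33-fold among the M0505 arrays. The SD of 0.57 lay at the 99.9th percentile of the STOSE SDs of all genes, whose median was 0.08. In M0505 cells the SD of *Ly6a* lay at the 93.8th percentile. None of the other 9 markers had a STOSE SD above the 60.5th percentile.

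The 5 genes whose pattern over the 6 arrays was closest to that of *Ly6a* were *BC026782*, *Gpr133*, *Lingo1*, *Otub2* and *Nipal3*. Closeness was the root mean square difference between log2 values centred on each gene's mean, among 14761 other genes above background in at least one line. It was 0.16 for *BC026782* and 0.18 for the fifth gene, against a median of 0.63. In all 5, as in *Ly6a*, STOSE replicate 1 was the lowest of the 6 arrays and M0505 replicate 1 the lowest of the M0505 arrays. *BC026782* had values of 4.38 on STOSE replicate 1 and 5.13 and 5.12 on the others, and *Gpr133* had 6.92, 7.64 and 7.76. The log2 fold changes of the 5 genes ran from −1.08 to −0.84. They were chosen for this likeness, so the match is a description of these 6 arrays.

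**Figure D2:**
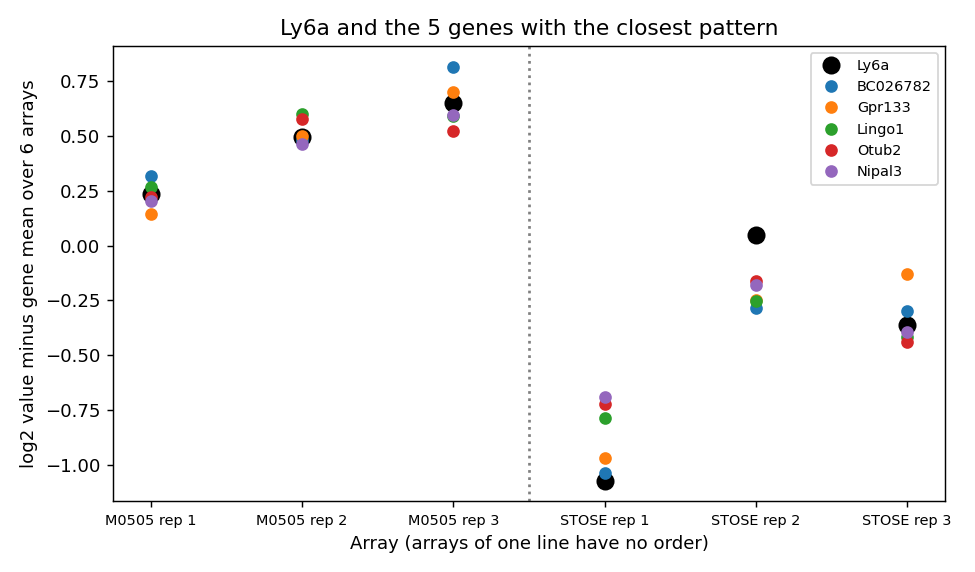
Log2 value minus the gene's mean over the 6 arrays (vertical axis) on each array (horizontal axis) for *Ly6a* (large black points) and the 5 genes closest to it. All 6 genes are lowest on STOSE replicate 1, where *Ly6a* has a log2 value of 4.70.

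*Ly6e*, which encodes a GPI-anchored protein of many tissues known for its effects on virus entry, had the largest difference of the 10 markers. Its log2 values were 11.41, 11.59 and 11.60 in M0505 cells and 9.15, 8.98 and 8.99 in STOSE cells, with no overlap and little spread in either line. The mean fell from 11.53 ± 0.11 to 9.04 ± 0.10 (SD, n = 3 each), which is 5.62-fold (difference −2.49 log2 units, SE 0.08, adjusted p = 7.39e-08 by limma). Leaving out single arrays kept the fall between 5.49-fold and 5.86-fold. The fall of *Ly6e* ranked 307 from the lowest among the log2 fold changes of all genes. *Ly6c1*, a marker of monocytes and some endothelial cells, was at 4.69, 4.75 and 4.90 in M0505 cells and 4.55, 4.46 and 4.56 in STOSE cells. These values lay around or under the background level, and the log2 fold change was −0.26 (95% interval −0.42 to −0.09, adjusted p = 0.0144), well under 2-fold. With each array centred on its median it was −0.06 (adjusted p = 0.506).

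The wider Ly6/uPAR family was read as a list of 33 genes, of which 32 were on the array. In STOSE cells 4 fell and 0 rose, against 7.59% of all genes lower and 4.9% higher. At the adjusted p alone 8 were lower and 12 higher, where 24.8% and 31.6% of all genes were. The median log2 fold change of the family was 0.14. The largest fall was that of *Lynx1*, which encodes a GPI-anchored modulator of nicotinic acetylcholine receptors, from 7.65 to 5.00 (difference −2.65 log2 units, SE 0.16, adjusted p = 2.39e-06 by limma). *Cd59a*, an inhibitor of the complement membrane attack complex, fell from 11.08 to 9.09 (difference −1.99 log2 units, SE 0.15). Its paralog *Cd59b*, named after its value was seen, also passed the rule, but its mean lay under the background level in both lines, at 4.51 and 2.88, so no fold is given. The 2 paralogs are alike in sequence, and how far their probe sets read each other's RNA was not tested.

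In the RefSeq annotation of GRCm38.p6, *Ly6e*, *Ly6i*, *Ly6a*, *Ly6c1* and *Ly6c2* follow each other in this order among the family members on chromosome 15. Their log2 fold changes were −2.49, −0.02, −0.92, −0.26 and −0.19. *Ly6i*, *Ly6c1* and *Ly6c2* are near relatives of *Ly6a*, and the *Ly6i* probe set lay under the background level in both lines, at 3.00 and 2.98. The *Lynx1* gene lies in the same cluster, on the other side of *Ly6e*. *Plaur*, the urokinase receptor gene on chromosome 7, had a log2 fold change of −0.63, with 10.22 in M0505 cells and 9.58 in STOSE cells.

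**Figure D3:**
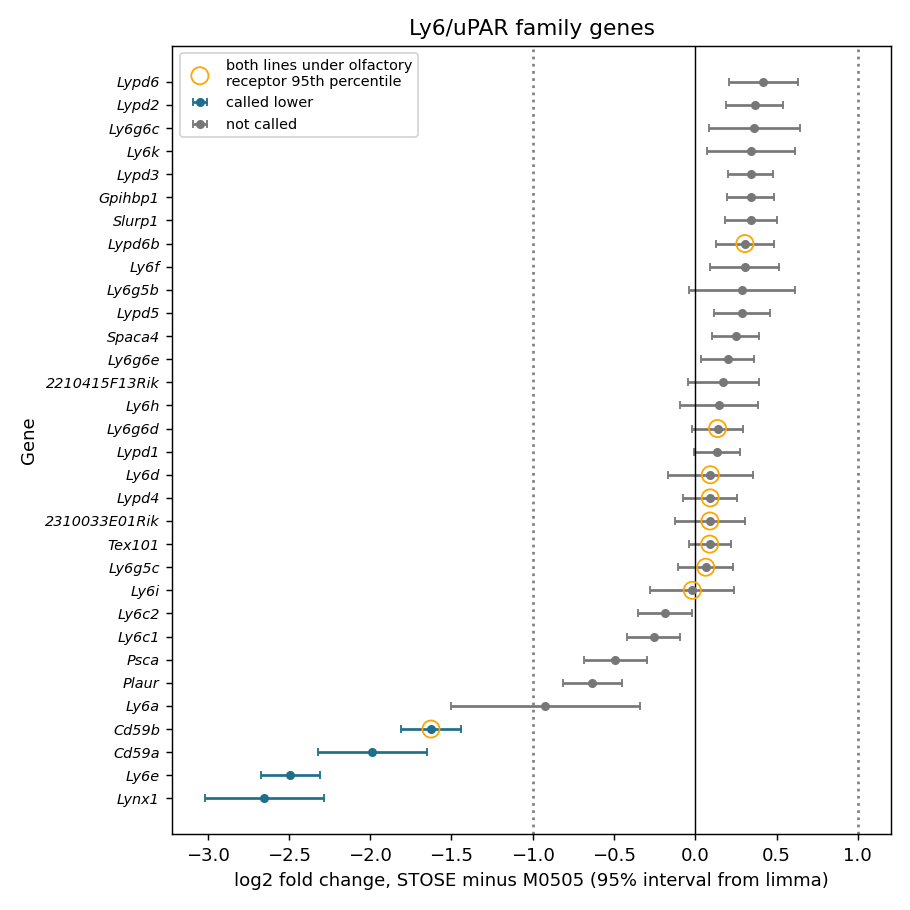
Log2 fold change of STOSE against M0505 cells (horizontal axis, with 95% intervals from limma) for 32 genes of the Ly6/uPAR family, sorted by value, under the symbols of the deposited table. Blue points passed the rule for a fall, gray points did not pass, and orange rings mark genes under the background level in both lines. *Lynx1*, *Ly6e*, *Cd59a* and *Cd59b* lie to the left of the dotted 2-fold line, and *Ly6a* has the widest interval.

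*Thy1* and *Cd44* were the markers that rose. *Thy1*, the GPI-anchored protein CD90 of T cells, fibroblasts and mesenchymal stem cells, had log2 values of 8.01, 8.34 and 8.18 in M0505 cells and 9.75, 9.64 and 9.62 in STOSE cells. All STOSE arrays lay above all M0505 arrays. The means were 8.18 ± 0.17 and 9.67 ± 0.07 (SD, n = 3 each), a rise of 2.81-fold (difference 1.49 log2 units, SE 0.09, adjusted p = 2.41e-06 by limma) that stayed between 2.65-fold and 2.97-fold with each array left out. *Cd44* had log2 values of 8.70, 8.37 and 8.52 in M0505 cells and 9.91, 9.87 and 9.80 in STOSE cells, again without overlap. Its rise was 2.503-fold (difference 1.32 log2 units, SE 0.09, adjusted p = 4.29e-06 by limma), and leaving out single arrays gave 2.37-fold to 2.66-fold. The spread between STOSE arrays was 1.08-fold for *Cd44* and 1.09-fold for *Thy1*. *Cd44* RNA is alternatively spliced, and a probe set value does not separate the standard from the variant isoforms.

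*Epcam*, an epithelial cell adhesion gene, had log2 values of 5.52, 5.10 and 5.44 in M0505 cells. In STOSE cells it was at 4.55, 4.52 and 4.39, under the background level on every array. The log2 fold change was −0.87 (SE 0.11, 95% interval −1.12 to −0.61, limma adjusted p = 0.000206). It came nearest to 2-fold, at −0.99, without M0505 replicate 2. *Eng*, the gene of endoglin, a co-receptor for BMP and TGF-β ligands, was at 5.66, 5.78 and 5.64 in M0505 cells and 6.01, 5.90 and 5.89 in STOSE cells. The arrays did not overlap, and the difference of 0.24 on the log2 scale (95% interval 0.08 to 0.39, adjusted p = 0.0153) was 1.18-fold.

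*Kit*, the stem cell factor receptor gene, lay at the background level, with M0505 arrays from 4.76 to 4.79 and STOSE arrays from 4.78 to 4.82. Its log2 fold change was 0.03 (95% interval −0.10 to 0.15, limma adjusted p = 0.702). *Prom1* had M0505 arrays from 3.94 to 4.16 and STOSE arrays from 3.95 to 4.04 (log2 fold change −0.06, 95% interval −0.22 to 0.11, adjusted p = 0.511). *Cd24a*, the gene of the GPI-anchored CD24, had M0505 arrays from 2.84 to 3.12 and STOSE arrays from 2.78 to 2.85 (log2 fold change −0.13, 95% interval −0.32 to 0.06, adjusted p = 0.219). At this signal no RNA of *Prom1* or *Cd24a* was distinguishable from background in either line.

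**Figure D4:**
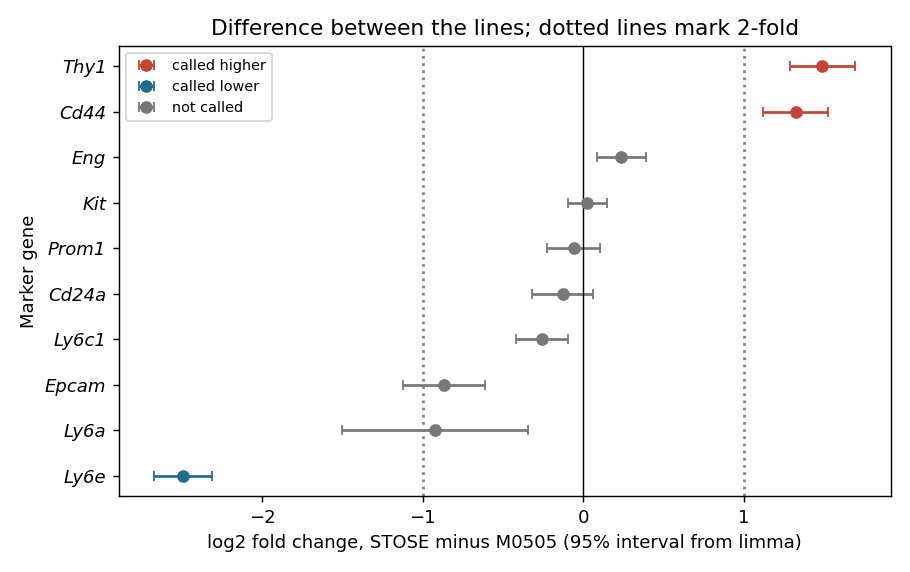
Log2 fold change of STOSE against M0505 cells (horizontal axis) for the 10 marker genes, with 95% intervals from limma. Dotted lines mark 2-fold. *Thy1* and *Cd44* lie wholly above the upper line and *Ly6e* wholly below the lower one, while the intervals of *Ly6a* and *Epcam* cross the lower line.

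Promoter windows of 250 bases before to 50 bases after the transcript start (RefSeq, GRCm38.p6) were at hand for 6 of the 10 genes, and not for *Ly6a*, *Ly6e*, *Cd24a* and *Thy1*. The windows of *Cd44*, which rose, and *Epcam*, which was lower, are shown as the 2 of the 6 with the largest differences, each 5′ to 3′ on the strand of the gene with the GC box (GGGCGG, either strand) in capitals. The *Cd44* window is chr2:102901616-102901915, minus strand, and the *Epcam* window is chr17:87635729-87636028, plus strand.
Cd44: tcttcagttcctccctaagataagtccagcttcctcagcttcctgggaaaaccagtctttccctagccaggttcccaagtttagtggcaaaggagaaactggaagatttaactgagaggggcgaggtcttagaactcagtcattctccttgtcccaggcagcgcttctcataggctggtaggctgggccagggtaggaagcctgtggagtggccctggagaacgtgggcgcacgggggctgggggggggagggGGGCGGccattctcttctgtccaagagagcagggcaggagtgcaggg
Epcam: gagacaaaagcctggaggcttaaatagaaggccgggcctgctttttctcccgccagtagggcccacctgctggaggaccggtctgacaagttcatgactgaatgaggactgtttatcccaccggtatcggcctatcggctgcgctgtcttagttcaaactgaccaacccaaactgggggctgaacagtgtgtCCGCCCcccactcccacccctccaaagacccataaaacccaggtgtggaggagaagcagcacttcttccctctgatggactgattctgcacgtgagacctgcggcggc
Each window holds 1 GC box, a motif found in 35.7% of 32851 promoter windows. The AP-1 motif TGANTCA (both strands), which shares no end with the GC box, was in neither, and was found among the 6 genes in that of *Prom1* alone (7.81% of all windows). The interferon motifs TTCNNNGAA and GAAA repeated after any 2 bases (both strands), which can overlap each other, were in none of the windows of the 6 genes, against 8.30% and 3.44% of all windows. The windows held 58% G and C bases for *Cd44* and 57% for *Epcam*.

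The genes around the markers were read as lists of ligands, partners and enzymes. All gene lists here were chosen with earlier results of these data known. Their shares beside those of all genes therefore describe these arrays and are not a test. Hyaluronan, the ligand of CD44, is made by hyaluronan synthases, and *Has2* rose most in the list of CD44 ligands, partners and splicing factors. Its log2 values were 3.91, 4.21 and 3.80 in M0505 cells, under the background level, and 8.84, 8.83 and 8.54 in STOSE cells. The rise was at least 16.0-fold (fitted difference 4.77 log2 units, SE 0.12, adjusted p = 2.29e-08 by limma). Of the 22 genes of this list 4 rose and 4 fell (18.2% each), against 4.9% and 7.59% of all genes. *Spp1*, encoding the CD44 ligand osteopontin, and *Slc7a11*, a cystine transporter subunit stabilized by CD44 variants, also rose, the latter with a wide spread in M0505 cells (7.82, 5.68 and 6.44) and a difference of 1.67 log2 units (SE 0.45, limma adjusted p = 0.0123) that was 1.19 without M0505 replicate 2 and 2.26 without M0505 replicate 1. *Vcan*, a hyaluronan-binding proteoglycan of the matrix, had a log2 fold change of −3.71, and it was −2.27 for *Cd74* and −1.28 for the CD44-cleaving protease gene *Mmp14*, all of which fell. *Vcan* and *Cd74* lay under the background level in STOSE cells, so that their falls were at least 11.7-fold and 3.76-fold. *Esrp1*, a splicing factor that favors *Cd44* variant exons, lay under the background level in both lines, at 3.78 and 3.90. Its paralog *Esrp2*, in the same list, lay above that level in both lines, at 6.90 in M0505 and 7.28 in STOSE cells. The *Esrp2* difference was under 2-fold.

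Of 20 genes of KIT ligand and signaling, 3 rose (15%) and 0 fell, against 4.9% and 7.59% of all genes. *Lyn*, a Src family kinase, rose from values of 4.71, 4.17 and 4.45 to 9.53, 9.12 and 9.25, with every M0505 array under the background level, which is at least 23.6-fold (fitted difference 4.85 log2 units, SE 0.15, adjusted p = 6.57e-08 by limma). The transcription factor gene *Mitf* rose by a log2 fold change of 1.89 and the kinase gene *Fyn* by 1.45. *Mitf* was not called with the mean of its probe sets. *Kitl*, the gene of the ligand itself, had means of 9.21 and 9.77, a difference of 0.56 log2 units (SE 0.09) that was under 2-fold.

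EPCAM is known to bind claudins and tetraspanins. Of the 20 EPCAM partner and cleavage genes 4 rose (20%) and 2 fell (10%), against 4.9% and 7.59% of all genes. *Cldn3*, a tight junction gene, rose from 5.67, 5.97 and 6.05 in M0505 cells to 9.80, 10.06 and 10.09 in STOSE cells (difference 4.08 log2 units, SE 0.12, adjusted p = 4.15e-08 by limma). The protease inhibitor gene *Spint1* rose by 2.71 log2 units and *Cldn1*, under the background level in M0505 cells, rose at least 2.48-fold, whereas the related inhibitor gene *Spint2* fell by 2.26 on the log2 scale. The tetraspanin gene *Tspan8* fell from 9.66, 9.77 and 9.90 to 4.52, 4.68 and 4.31, under the background level on every STOSE array, which is at least 32.8-fold. *Cldn7*, the claudin best known as an EPCAM partner, had means of 4.57 and 4.72, both under the background level.

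Of 26 endoglin ligands, receptors and SMAD genes, 7 fell and 2 rose, which is 26.9% and 7.69% against 7.59% and 4.9% of all genes. In this list 24 genes lay above background in the brighter line. Among all such genes 17.1% were called in either direction, against 12.5% over all genes. *Id3*, a target of BMP signaling that encodes an inhibitor of basic helix-loop-helix factors, fell from 8.18, 8.42 and 8.46 to 5.16, 5.83 and 5.83 (difference −2.74 log2 units, SE 0.18, adjusted p = 3.51e-06 by limma). The inhibitory SMAD gene *Smad6* (log2 fold change −2.13) and the ligand gene *Tgfb3* (−1.82) also fell. *Id2* rose by 1.41 and the co-receptor gene *Tgfbr3* by 1.15, the latter at 0.98 without M0505 replicate 1. *Acvrl1*, encoding the receptor ALK1 that pairs with endoglin, had means of 5.28 and 5.51. Over the whole list the median was −0.04.

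THY1 binds integrins, and 3 of 8 THY1 partner genes rose (37.5%) while 1 fell (12.5%), against 4.9% and 7.59% of all genes. *Itgb3*, the β3 integrin chain, rose from 4.84, 5.16 and 5.10 to 8.07, 8.15 and 8.06 (difference 3.06 log2 units, SE 0.09, adjusted p = 5.03e-08 by limma), and *Itgb5*, the β5 chain, fell by 1.58 on the log2 scale. *Fyn*, which is also in the KIT list, rose. *Pag1*, an adaptor of lipid rafts, lay at the 2-fold limit with a log2 fold change of 1.01, and fell under it, to as low as 0.94, without M0505 replicate 2, M0505 replicate 3 or STOSE replicate 1. In the list of 30 genes of GPI anchor assembly and remodeling, 29 were on the array and all of them lay above background in at least one line. Only *Gpld1*, a phospholipase that cleaves GPI anchors, was called, with a log2 fold change of −1.46 (SE 0.11). That is 3.45% of the list lower, against 7.59% of all genes.

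Among 35 other genes used as stem or tumor-initiating cell markers, 7 fell (20%) and 5 rose (14.3%), against 7.59% and 4.9% of all genes. *Nes*, the intermediate filament gene nestin, rose from 6.03, 5.52 and 5.43 to 8.79, 8.57 and 8.58 (difference 2.99 log2 units, SE 0.15, adjusted p = 9.00e-07 by limma). *Alcam*, the adhesion gene CD166, rose by a log2 fold change of 1.89 and *Mcam*, the gene of CD146, by 1.26. Besides *Tspan8*, the RNA-binding protein gene *Msi1* (log2 fold change −3.14) and *Cd55* (−2.87), a GPI-anchored regulator of complement, fell. The list thus held changes in both directions, and its median was −0.16.

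Since *Ly6a* and *Ly6e* respond to interferon, 20 interferon-inducible genes and factors were read beside them. Of these 20 genes 5 fell (25%) and 2 rose (10%), against 7.59% and 4.9% of all genes. *Oasl2* fell from 10.12, 9.50 and 9.44 to 7.59, 7.60 and 7.61 (difference −2.08 log2 units, SE 0.16, adjusted p = 9.93e-06 by limma). *Irf9* and *Irf7*, transcription factors of the interferon response, fell with log2 fold changes of −1.30 and −1.24. *Ifit2* rose by a log2 fold change of 1.60 and the immunoproteasome gene *Psmb8*, under the background level in M0505 cells, at least 2.03-fold, while *Ifit1* and *Isg15* lay under the background level in both lines. With each array centred on its median, 3 genes of the list fell, and *Stat2*, at −0.998, no longer reached 2-fold. The part of interferon signaling in the differences of *Ly6a* and *Ly6e* was not tested.

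**Figure D5:**
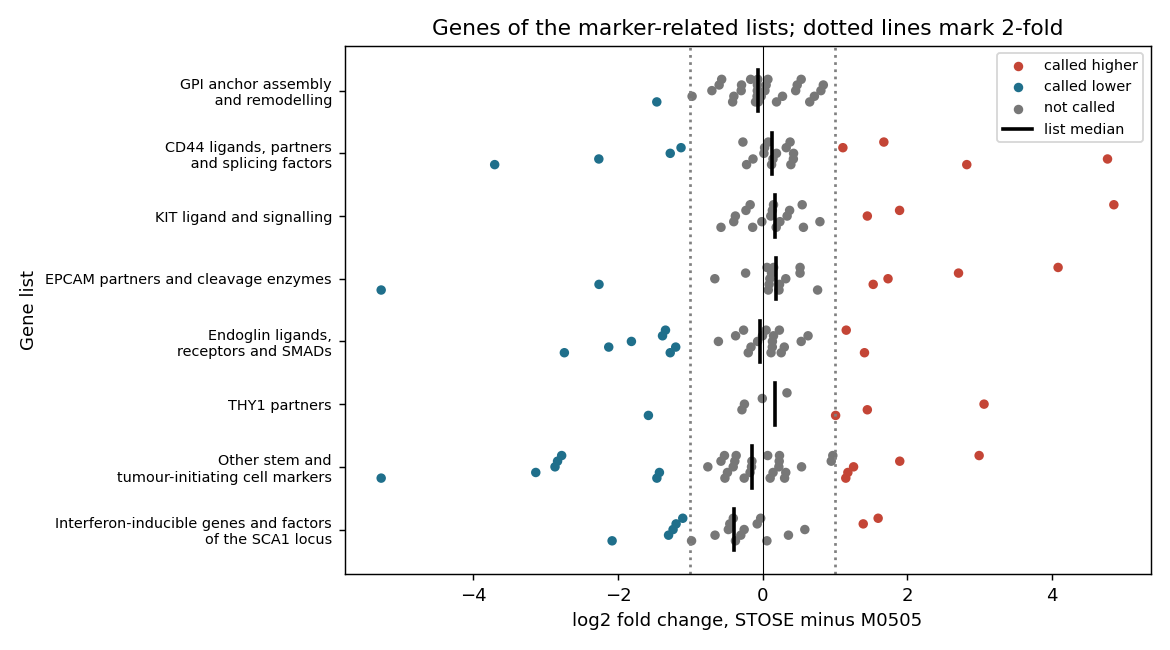
Log2 fold change of STOSE against M0505 cells (horizontal axis) of every measured gene in 8 lists (vertical axis). Red points rose, blue points fell, gray points did not pass the rule, and the black bars are list medians, from −0.39 for the interferon list to 0.19 for the EPCAM list. *Has2*, *Lyn* and *Cldn3* are the points farthest to the right and *Tspan8*, which is in both the EPCAM and the stem marker list, is the point farthest to the left.

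Several of the markers are also expressed by other cell types, so lists of defining genes were read on the same arrays. Of 17 leukocyte markers 11, with *Ptprc* (CD45) and *Csf1r* among them, lay under the background level in both lines, and the log2 of their summed signal was 10.04 to 10.36 in M0505 cells and 9.07 to 9.11 in STOSE cells. *Cd68* alone among the 17 fell (log2 fold change −2.82). Of 14 endothelial markers *Pecam1*, *Emcn*, *Erg* and *Sox17* lay under background in both lines, and the log2 summed signal was 10.40 to 10.50 in M0505 and 8.69 to 8.83 in STOSE cells, with falls of *Kdr* (at least 28.6-fold, as it lay under background in STOSE cells) and *Esam* (log2 fold change −2.77). For 11 fibroblast and stromal markers it was 12.64 to 12.68 and 12.87 to 13.08, with *Pdgfrb*, *Lum*, *Fap*, *Postn* and *Tcf21* under background in both lines, a rise of *Acta2* (log2 fold change 2.33) and a fall of *Col1a2* (−2.45). For 10 mast cell and melanocyte markers it was 7.56 to 7.58 and 7.74 to 7.76, 6 of them under background in both lines, and *Cma1*, one that lay under background in M0505 cells, rose at least 1.63-fold. For 12 granulosa and steroidogenic cell markers it was 11.96 to 11.98 in M0505 and 9.06 to 9.12 in STOSE cells, with *Fshr*, *Lhcgr*, *Cyp19a1*, *Cyp17a1*, *Cyp11a1* and *Hsd3b1* under background in both lines and falls of *Star*, *Inha* and *Nr5a1*. For the 15 mesothelial and ovarian surface epithelial markers it was 15.00 to 15.08 and 14.14 to 14.22. Of these 15 markers 5 fell (33.3%, against 7.59% of all genes), led by *Krt19* (−5.56), *Amhr2* (−5.01) and *Krt8* (−4.55). *Krt7*, also among the 5, did not pass the rule after median centring (−0.83). Nor did it pass without M0505 replicate 2, M0505 replicate 3 or STOSE replicate 1. The part of these shifts in the marker differences was not tested.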

How the data were processed

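Total RNA of M0505 and STOSE cells (3 arrays each) was read on Mouse Gene 1.0 ST arrays (Affymetrix). The authors processed the arrays with RMA in Affymetrix Expression Console and deposited 1 table of log2 values for 28944 probe sets, with line means and linear fold changes that were not used here. The versions, annotation release and genome build are not given in the sources used here, and probe signals were not used here, so background correction and normalization could only be added to. Of the probe sets, 23530 carried a symbol, and the one with the highest mean was kept for each of 20405 genes. All 6 arrays were fitted with limma 3.58.1 in R 4.3.3 without a covariate, with Benjamini-Hochberg adjustment, and the code was tested on simulated data. With 3 arrays against 3, the smallest p of an exact two-sided permutation test is 0.1. The background level came from 1134 olfactory receptor probe sets. Of 288 listed genes 286 were found by symbol or synonym.

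The marker genes and lists were chosen with earlier results of these data known. Named from each list are up to 3 called genes with the largest falls and up to 3 with the largest rises. Other genes named from a list were chosen after their values were seen. Promoters are those of RefSeq. An array has no read depth, and the number of arrays limits the precision. Alternatives were a further quantile normalization, centring on the array median, a filter on the dimmest 25% or 50% of genes, averaged probe sets, the methods' t-test (raw and adjusted p), limma with robust estimation and a trend, no fold limit, leaving out each array and a replicate block.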

Additional observations from a re-analysis of the deposited data

How the results depend on the processing

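The rises of *Cd44* and *Thy1* and the fall of *Ly6e* passed under every alternative run. Without a fold limit, 4 markers were lower, with *Ly6a* (−0.92), *Ly6c1* (−0.26) and *Epcam* (−0.87) added to *Ly6e*, and *Eng* (0.24) was higher beside *Cd44* and *Thy1*. Without one array the number of markers lower ran from 1 to 2, the second being *Ly6a*. *Prom1*, *Cd24a* and *Kit*, near or under background, changed sign. *Prom1* was at 0.14 after median centring and ran from −0.107 to 0.00111 without one array, turning sign without M0505 replicate 1. *Cd24a* was at 0.0722 after median centring and *Kit* at −0.0656 after the further quantile normalization. After median centring *Kit* was at 0.226 (limma adjusted p = 0.00453), under 2-fold, so its difference depended on the scaling. Over all genes, 6454 were higher (31.6%) and 5066 lower (24.8%) without a fold limit. Median centring moved the share of calls that were higher from 39.2% (1000 against 1548 lower) to 55.5% (1466 against 1177). Without a fold limit the lists had 12 higher and 8 lower (Ly6/uPAR family), 8 and 10 (GPI anchor), 10 and 5 (CD44), 9 and 5 (KIT) and 9 and 4 (EPCAM). The remaining lists had 8 higher and 12 lower (endoglin), 3 and 3 (THY1), 11 and 16 (other stem markers) and 4 and 13 (interferon). Without the dimmest 50% of genes, 2 of the Ly6/uPAR family and 0 of the GPI anchor list were lower and 1 of the interferon list was higher, as fewer genes were tested. After median centring 2 GPI anchor genes were higher and 3 interferon genes lower. With each array left out, 1 to 2 GPI anchor genes were lower (2 without M0505 replicate 2 or STOSE replicate 2) and 1 to 2 endoglin-related genes higher (1 without M0505 replicate 1). The methods' t-test did not call the rise of *Slc7a11*, and its p for *Ly6a* was 0.0577 (0.0986 adjusted). The cause of these changes other than the number of genes tested was not tested. The sample titles do not say whether replicate numbers pair the samples. Deviations from the line means correlated at 0.26, 0.04 and 0.25 between same-numbered arrays of the lines, and at −0.29 to 0.12 between differently numbered ones. These few values cannot decide whether the numbers mark a pairing, so the main fit had no block. With the replicate block 2 markers were higher and 1 was lower, and 1001 of all genes were higher and 1548 lower. For *Ly6a* the block left the log2 fold change at −0.92, under 2-fold. Its SE went from 0.25 to 0.16 and its limma adjusted p from 0.0136 to 0.00288. Signal over background limits what can be said of *Prom1*, *Cd24a*, *Kit*, *Ly6c1* and *Epcam*.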
